A study of Homo sapiens with 4 samples.

Results

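LMO4 and the proteins that assemble with LIM-only factors were described by the 9 genes LMO1, LMO2, LMO3, LMO4, LDB1, LDB2, SSBP2, SSBP3 and DEAF1. They were chosen by gene symbol from a table of 57815 genes, and all 9 were found in it. RNA-Seq had been done on MDA-MB-231, a triple-negative human breast cancer cell line (the parent line), and on LM2-4175, a line isolated from it that metastasizes to the lung. Both lines were cultured without treatment, and each was sequenced as 2 libraries, 4 in all. The table gives 1 FPKM per gene and cell line, with a lower and an upper bound. FPKM counts fragments relative to transcript length and library size, so levels can be compared between genes. LM2-4175 is 1 selected line, and its differences from MDA-MB-231 are differences between these cell lines.

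LIM-only (LMO) proteins consist almost entirely of LIM domains, zinc-binding folds that bind other proteins and not DNA. LDB1 binds LIM domains and itself, and so joins LIM-only or LIM-homeodomain proteins to the transcription factors on promoters and enhancers. Single-stranded DNA binding proteins (SSBP) bind LDB1 and protect it from breakdown, and DEAF1 is a DNA-binding transcription factor that binds LMO4. LMO4 is known for its expression in mammary epithelium and breast cancer, and LMO2 for its role in blood formation and T cell leukaemia.

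LMO4 (ENSG00000143013) lies on the plus strand of chromosome 1, from 87794563 to 87814606 (GRCh37, the same assembly as hg19). The study measured it by qPCR and knocked it down with siRNAs in the lung-metastatic line. These oligonucleotides are shown because they fix which stretch of LMO4 those assays read, and they are written 5′ to 3′.
LMO4 forward primer: aagattgcggaccgctttct
LMO4 reverse primer: ctgcaaaggatcatgccactt
si-LMO4-1: gaattcacttcagagcaatcc
si-LMO4-2: cccgcatttattggtgtatta
The forward primer matched chr1:87797783-87797802 and the reverse primer matched the opposite strand at chr1:87797899-87797919. Both sites lie in the coding part of exon 2 of 5, and the amplicon is 137 bases long. The primers matched 4 of 4 annotated LMO4 transcripts. The sequence of si-LMO4-1 matched the coding part of exon 4 (chr1:87805846-87805866), and that of si-LMO4-2 matched the 3′ UTR in exon 5 (chr1:87810629-87810649), each in 3 of 4 transcripts. None of the 4 matched a transcript of another gene without mismatches. The closest stretch in LMO1 differed from the forward primer at 4 positions, and those in LMO2 and LMO3 at 5. For si-LMO4-1 the closest stretches differed at 9 positions in LMO1 and at 8 in LMO2 and LMO3. For si-LMO4-2 they differed at 7, 9 and 7 positions. No knockdown sample was analysed here.

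Among the LIM-only genes, LMO4 was the abundant member in both cell lines and LMO2 was the only member called. LMO2 rose from 0.308 FPKM to 3.92 FPKM in LM2-4175. LMO4 was at 16.7 FPKM in the parent line and at 26.3 FPKM in LM2-4175, with bounds that overlapped. LMO1 and LMO3 were below 0.4 FPKM in both. A gene was called where the change was at least 1.5-fold when 1 is added to each FPKM and the cell lines had separate bounds. Only genes with a mean of at least 0.5 FPKM were tested, which left 13911 genes. Of the 9 members 6 were tested, and 1 was called, LMO2. Of all genes tested 9.27% were called, 4.67% higher and 4.61% lower in LM2-4175. Because the libraries of a line are combined in 1 value, no difference has a replicate check and no p-value is given.

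The bounds for LMO2 (ENSG00000135363; chromosome 11, 33880122 to 33913623, minus strand) were 0.0901 to 0.526 FPKM in the parent line and 2.64 to 5.20 FPKM in LM2-4175. The log2 change of FPKM + 1 was 1.91, and the ratio of the FPKM values was 12.7. Set against each other, the bounds allow a ratio from 5.02 to 57.7. The difference was 5.57 standard errors. The standard error of a value is the distance from the FPKM to its upper bound divided by 2. That of a difference is the root of the summed squares of the errors in both cell lines. A larger increase was found for 154 of the genes tested (1.11%). LMO2 passed the filter on low values only through LM2-4175, so a difference was built into its being tested. In LM2-4175 its level still stood above that of only 27.7% of the genes tested. In bulk RNA, a larger share of cells with LMO2 and more LMO2 RNA per cell cannot be told apart.

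For LMO4 the bounds were 11.7 to 21.7 FPKM in the parent line and 18.6 to 33.9 FPKM in LM2-4175. They shared the stretch from 18.63 to 21.65 FPKM, so LMO4 was not called. The study, which selected genes by fold change and a statistical test in Cuffdiff, names LMO4 as up-regulated in LM2-4175. Separate bounds are a different requirement from that test, and a gene not called here is not shown to be unchanged. The study also reports changed histone marks at LMO4 and less migration after its knockdown, which were not examined here. The log2 change of LMO4 was 0.63, a ratio of 1.58 for which the bounds allow 0.860 to 2.91. The difference was 2.11 standard errors, and 1309 of the genes tested (9.41%) had a larger increase. By level, LMO4 stood above 58.8% of the genes tested in the parent line and above 71.6% in LM2-4175. Its bounds were about as wide as those of other genes of its level. The upper bound lay 30.01% above the FPKM in the parent line and 29.1% above it in LM2-4175, beside medians of 33.09% and 33.05% over 4714 genes within 2-fold of its mean.

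**Figure D1:**
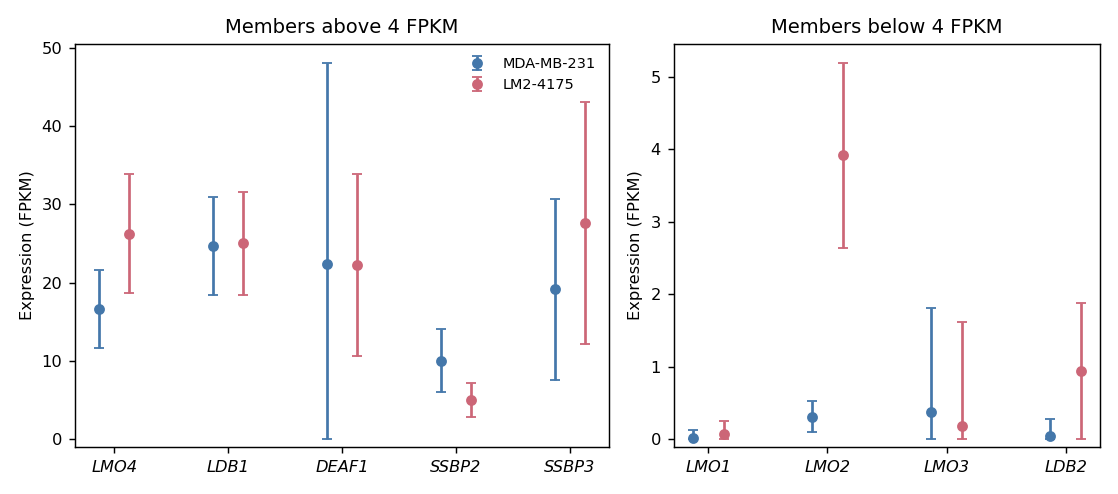
FPKM of the 9 genes in MDA-MB-231 and LM2-4175, with members above 4 FPKM and below it in panels of their own. Points are the deposited values and error bars run from the lower to the upper bound. LMO2 is the member whose bounds in the cell lines do not overlap, and those of LMO4 overlap between 18.63 and 21.65 FPKM.

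LMO1 and LMO3, relatives best known from the nervous system and from leukaemia and neuroblastoma, were not tested. LMO1 (ENSG00000166407; chromosome 11, 8245856 to 8290263, minus strand) was at 0.0186 FPKM (0 to 0.125) in the parent line and 0.0673 FPKM (0 to 0.253) in LM2-4175. LMO3 (ENSG00000048540; chromosome 12, 16701306 to 16763528, minus strand) was at 0.375 FPKM (0 to 1.81) and 0.179 FPKM (0 to 1.61). All of these lower bounds are 0, so neither gene can be told from no expression by its bounds.

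The summed level of LMO1 to LMO4 was 17.4 ± 2.60 FPKM in the parent line and 30.4 ± 3.94 FPKM in LM2-4175, where the error is the standard error obtained from the bounds. The sums differed by 13.1 FPKM or 2.77 standard errors. With 2 standard errors on each side, the sum reached up to 22.56 FPKM in the parent line and down to 22.55 FPKM in LM2-4175. LMO4 made up 96.0% of the sum in the parent line and 86.3% in LM2-4175. The share of LMO2 was 1.77% and 12.9%. There were 54.1 ± 20.8 units of LMO4 for each unit of LMO2 in the parent line and 6.70 ± 1.46 in LM2-4175.

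LDB1, the adaptor that LIM-only proteins share, was nearly level between the cell lines. It was at 24.7 FPKM (18.4 to 30.9) in the parent line and 25.0 FPKM (18.5 to 31.5) in LM2-4175 (ENSG00000198728; chromosome 10, 103866246 to 103880125, minus strand). The log2 change was 0.02, and the bounds allow a ratio from 0.598 to 1.71. LDB2, the second adaptor of this family, was at 0.0356 FPKM (0 to 0.275) in the parent line and 0.934 FPKM (0 to 1.88) in LM2-4175 (ENSG00000169744; chromosome 4, 16503164 to 16900301, minus strand). With a mean of 0.485 FPKM it lay just under the filter and was not tested. Its values differed by 1.85 standard errors and the bounds overlapped. LDB1 held 99.9% of the LDB sum in the parent line and 96.4% in LM2-4175. The ratio of the LMO sum to the LDB sum was 0.703 ± 0.138 in the parent line and 1.17 ± 0.213 in LM2-4175. For LMO4 and LDB1 alone the ratio was 0.676 ± 0.133 and 1.05 ± 0.205. These are ratios of RNA levels, and protein was not measured in this table.

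**Figure D2:**
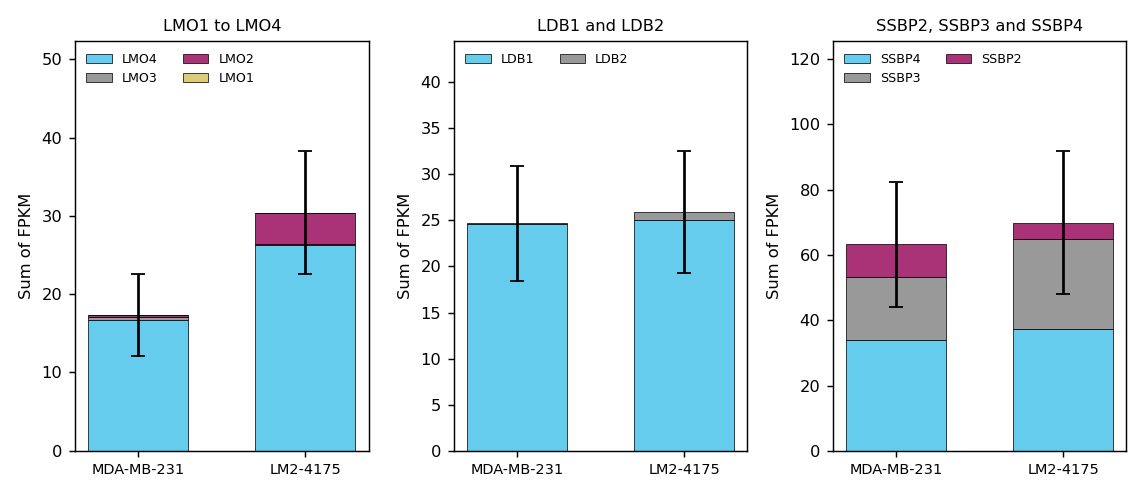
Summed FPKM of the LIM-only genes, the LDB adaptors and the SSBP genes in MDA-MB-231 and LM2-4175, with the part of each gene stacked. Error bars are 2 standard errors of the sum from the bounds. The LMO sums are 17.4 and 30.4 FPKM, the LDB sums 24.7 and 25.9 FPKM, and the SSBP sums 63.2 and 69.9 FPKM.

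Of the SSBP genes, whose products stabilize LDB1, SSBP2 had a lower and SSBP3 a higher value in LM2-4175, and neither was called. SSBP2 was at 10.00 FPKM (5.957 to 14.04) in the parent line and 4.96 FPKM (2.79 to 7.12) in LM2-4175 (ENSG00000145687; chromosome 5, 80708623 to 81047616, minus strand). The bounds overlapped between 5.957 and 7.124 FPKM, so SSBP2 was not called. Its log2 change was −0.89, the difference was −2.2 standard errors, and the bounds allow a ratio from 0.199 to 1.20. A larger decrease was found for 731 of the genes tested (5.26%).

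SSBP3 was at 19.2 FPKM (7.60 to 30.7) in the parent line and 27.6 FPKM (12.1 to 43.1) in LM2-4175, a log2 change of 0.50 that was not called (ENSG00000157216; chromosome 1, 54691105 to 54879152, minus strand). The difference was 0.87 standard errors, and the bounds, which were wide, allow a ratio from 0.394 to 5.67. The upper bound lay 60.3% above the FPKM in the parent line, and the median for genes of a like level was 32.6%. Of the 50-base stretches in SSBP3 transcripts 10.45% also occur in transcripts of other genes, among them the pseudogenes SSBP3P1 and SSBP3P2. Reads were paired and 150 bases long, and whether shared stretches affected the level or bounds of SSBP3 was not tested. The share was 4.32% for SSBP2, 4.6% for DEAF1, 1.32% for LDB2 and 0 for LMO1 to LMO4 and LDB1.

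The ratio of SSBP3 to SSBP2 was 1.92 ± 0.696 in the parent line and 5.57 ± 1.98 in LM2-4175. SSBP4, which belongs to the same family but was not among the 9 genes, was the highest of the family at 34.1 FPKM (19.5 to 48.6) and 37.4 FPKM (22.002 to 52.8). The sum of SSBP2, SSBP3 and SSBP4 was 63.2 ± 9.52 FPKM in the parent line and 69.9 ± 10.98 FPKM in LM2-4175, a difference of 0.46 standard errors. Per unit of LDB this was 2.56 ± 0.503 and 2.70 ± 0.545. SSBP2 made up 15.8% of this sum in the parent line and 7.08% in LM2-4175, and SSBP3 made up 30.3% and 39.4%.

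DEAF1 was at 22.4 FPKM (0 to 48.1) in the parent line and 22.2 FPKM (10.6 to 33.8) in LM2-4175 (ENSG00000177030; chromosome 11, 644233 to 707118, minus strand). The log2 change was −0.01, and it turned to 0.065 when the cell lines were scaled to the same sum of FPKM. The lower bound of 0 in the parent line sets no upper limit to the ratio. The upper bound there lay 114% above the FPKM, and only 2.26% of 4690 genes within 2-fold of its mean had a wider one. Of the exon bases of DEAF1 3.0% overlap EPS8L2 on the opposite strand, and the sources used here do not state whether strand was used in counting.

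**Figure D3:**
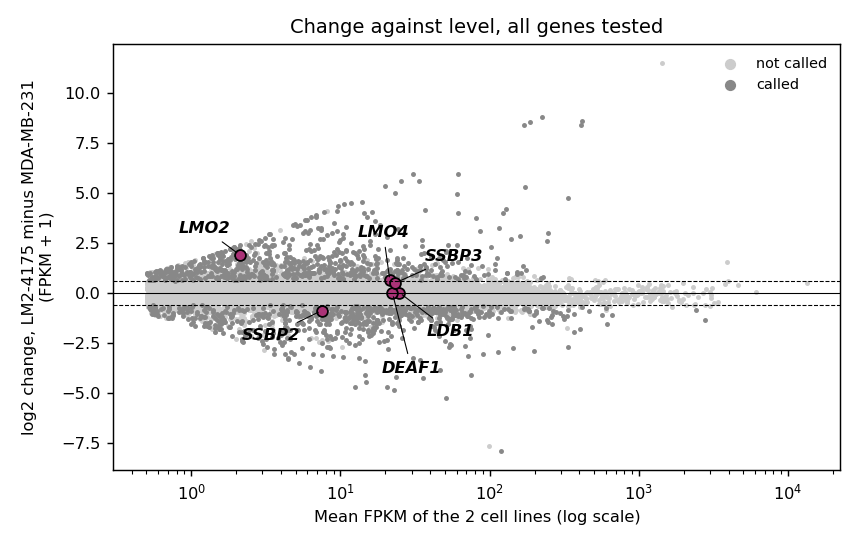
log2 change (LM2-4175 minus MDA-MB-231, FPKM + 1) of the 13911 genes tested against their mean FPKM on a log scale. Dark grey points are called genes, purple points are the 6 members tested and dashed lines mark 1.5-fold. LMO2, LMO4 and SSBP2 lie beyond the dashed lines, and of these LMO2 was called.

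The median log2 change of the 6 members tested was 0.26, beside −0.04 over all genes tested. LMO2, LMO4 and SSBP2 passed 1.5-fold, and 22.1% of all genes tested did so, 10.3% higher and 11.8% lower. The same 3 passed when a difference over 1.96 standard errors was asked for in place of separate bounds, where the background was 14.4%, of which 6.61% higher and 7.84% lower. Bounds that did not overlap, whatever the fold, were found for LMO2 and for 9.39% of all genes tested. The requirement of separate bounds therefore decides the call of LMO4 and SSBP2, and LMO2 was called under each of these rules. All of these rules use the same values and bounds.

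In order of level, MDA-MB-231 had LDB1, DEAF1, SSBP3, LMO4 and SSBP2, each with bounds that overlapped those of the next. LMO3, LMO2, LDB2 and LMO1 followed with bounds that did not overlap those of SSBP2, and they overlapped among neighbours. In LM2-4175 the order was SSBP3, LMO4, LDB1 and DEAF1, with overlapping bounds. SSBP2 and LMO2 formed a lower pair, separated from DEAF1 above and from LDB2 below, and LMO3 and LMO1 came last. Members with at least 1 FPKM numbered 5 in the parent line and 6 in LM2-4175.

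The proteins that use the same adaptor were examined as a list of 12 LIM-homeodomain factors, which bind DNA and compete with LIM-only proteins for LDB1. Only LHX6 and LHX4 were tested and neither was called. LHX6, known from the development of interneurons and teeth, was at 2.31 FPKM (1.32 to 3.30) in the parent line and 1.06 FPKM (0.504 to 1.61) in LM2-4175, a log2 change of −0.68. LHX4 was at 0.518 and 0.585 FPKM. The other 10 did not exceed 0.453 FPKM, and ISL1, LHX5 and LMX1A were listed at 0 in both. The RNA of the LIM-homeodomain factors summed to 3.35 FPKM in the parent line and 2.36 FPKM in LM2-4175, well under that of the LIM-only genes.

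Among 10 further genes of LDB1 complexes 7 were tested, none was called higher and 1 was called lower, with a median log2 change of 0.01. Over all genes tested 4.67% were called higher and 4.61% lower. LYL1, a helix-loop-helix factor of blood cells that forms complexes with LMO2, fell from 1.41 FPKM (0.834 to 1.99) to 0.0582 FPKM (0 to 0.149) in LM2-4175, with a log2 change of −1.19. It passed the filter through MDA-MB-231 alone and moved opposite to LMO2. TAL1 and GATA1, the other blood factors of the LMO2 complex, were at or near 0. TAL1 was at 0.00969 and 0.00598 FPKM, and GATA1 was listed at 0 in both cell lines. GATA2 was at 4.67 and 4.13 FPKM and GATA3, a regulator of luminal breast cells, at 3.10 and 2.42 FPKM. The E proteins, which pair with TAL1 and LYL1, were close between the cell lines, TCF3 at 50.2 and 50.5 FPKM and TCF12 at 29.4 and 30.2 FPKM. RLIM, the ubiquitin ligase that marks LDB1 for breakdown, was at 14.6 FPKM (10.9 to 18.2) and 20.5 FPKM (15.4 to 25.6), a log2 change of 0.47 that was not called.

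Among 8 genes reported to act with LMO4, 7 were tested, 6 of them had lower values in LM2-4175 and 1 was called. SNAI1, a repressor of E-cadherin in epithelial to mesenchymal transition, fell from 2.59 FPKM (1.70 to 3.48) to 0.836 FPKM (0.467 to 1.21) in LM2-4175, with a log2 change of −0.97. Its relative SNAI2 was at 20.2 FPKM (15.3 to 25.1) and 14.6 FPKM (10.98 to 18.3) and was not called. The deacetylase HDAC2 was at 114 and 98.8 FPKM. IL6ST, the receptor chain gp130, was the 1 gene with a higher value, at 70.6 and 82.8 FPKM. The median log2 change of this list was −0.17, beside −0.04 over all genes tested, of which 4.61% were called lower. ESR1, the oestrogen receptor, was at 0.0331 and 0.0186 FPKM and was not tested.

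**Figure D4:**
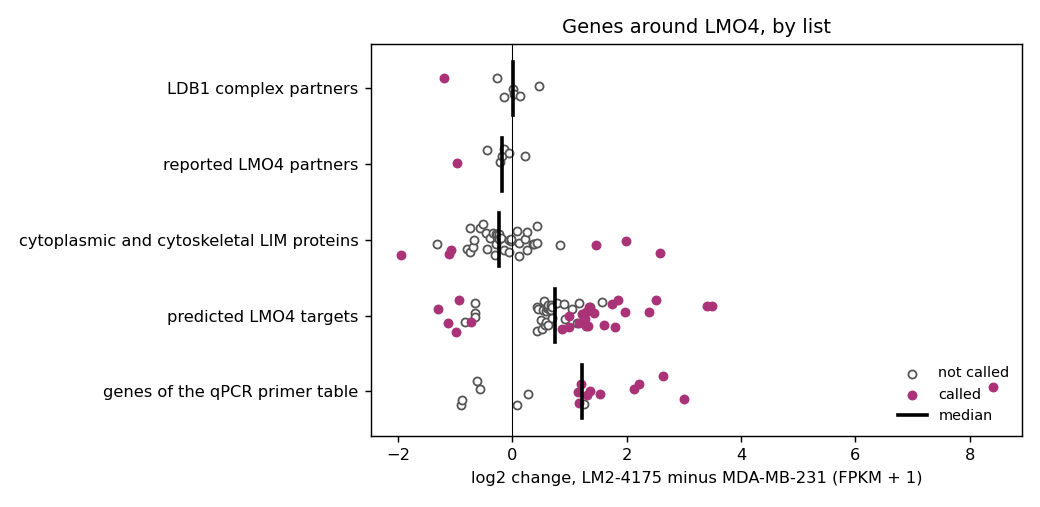
log2 change (LM2-4175 minus MDA-MB-231, FPKM + 1) of each tested gene in the lists related to LIM proteins, with called genes marked and the median of each list as a bar. LYL1 at −1.19 and SNAI1 at −0.97 are the called genes among LDB1 complex and LMO4 partners. The predicted LMO4 targets have a median of 0.74, over a list with no change under 0.43 in either direction. The study chose the predicted targets and the genes with qPCR primers.

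The study's regulatory network linked LMO4 to 57 predicted targets, of which 56 were found and tested. Higher values in LM2-4175 were found for 47 and lower values for 9. Of the 56, 20 were called higher and 5 lower, beside 4.67% and 4.61% of all genes tested. The study chose this list on these samples, and its smallest change in either direction was 0.43 on the log2 scale, so these counts are not independent evidence of a direction. Among those that rose, MYO1D, a motor protein of the myosin family, went from 0.645 to 17.5 FPKM and PTPRN2, a phosphatase-like protein of secretory vesicles, from 0.0911 to 10.5 FPKM. FBLN1, a protein of the extracellular matrix, rose from 2.83 to 20.9 FPKM. PPP2R2C, a regulatory subunit of protein phosphatase PP2A, went from 1.56 to 12.4 FPKM, and SPOCK1, a matrix proteoglycan, from 0.760 to 5.91 FPKM. Those called lower were KRT18, a luminal keratin (448 to 181 FPKM), the transcription factor GTF2I (99.1 to 44.8 FPKM), the DNA repair enzyme UNG (62.5 to 31.3 FPKM), the mitochondrial protein CHCHD3 (115 to 59.7 FPKM) and ARHGAP19 (12.1 to 6.98 FPKM), a GTPase-activating protein. The median log2 change was 0.74, over a list with no change under 0.43 in either direction.

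The study listed qPCR primers for 18 genes besides LMO4 and the control GAPDH. The study picked these genes, some of them as genes of epithelial to mesenchymal transition, so their counts are not independent evidence of a direction. Of these 11 were called higher and none lower, beside 4.67% and 4.61% of all genes tested. Their median log2 change was 1.23. IL1B, an inflammatory cytokine, rose from 1.43 to 819 FPKM, G0S2, an inhibitor of fat breakdown, from 53.6 to 439 FPKM, and AKAP12, a scaffold for protein kinase A, from 9.04 to 61.3 FPKM. DMKN, a secreted protein of the epidermis, went from 4.44 to 24.3 FPKM, and the adhesion molecule CLMP from 7.32 to 35.5 FPKM. The largest decreases were not called. TGFB2 was at 65.96 and 34.8 FPKM, SMAD4 at 33.0 and 17.5 FPKM, and the receptor NOTCH1 at 7.05 and 4.26 FPKM. None of the 18 was in the list of 57 predicted targets used here, although the study speaks of some genes of its qPCR set as predicted targets.

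The genes next to LMO4 on the chromosome were examined for values of the same size. Within 1 Mb, 4 protein-coding genes were tested and none was called. ODF2L, the farthest of them at −0.933 Mb, was at 19.1 and 30.1 FPKM, a log2 change of 0.63 equal to that of LMO4. SH3GLB1, SEP15 and HS2ST1, which lie closer to LMO4, had log2 changes between −0.07 and 0.09. Around LMO2 12 genes were tested, chosen after values were seen, and 1 was called. This was DEPDC7, which rose from 0.889 to 2.96 FPKM. The median log2 change around LMO2 was 0.21, and that of LMO2 was 1.91. Around SSBP2 3 genes were tested and none was called, with log2 changes between −0.07 and 0.34 beside −0.89 for SSBP2. Of all genes tested 9.27% were called.

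**Figure D5:**
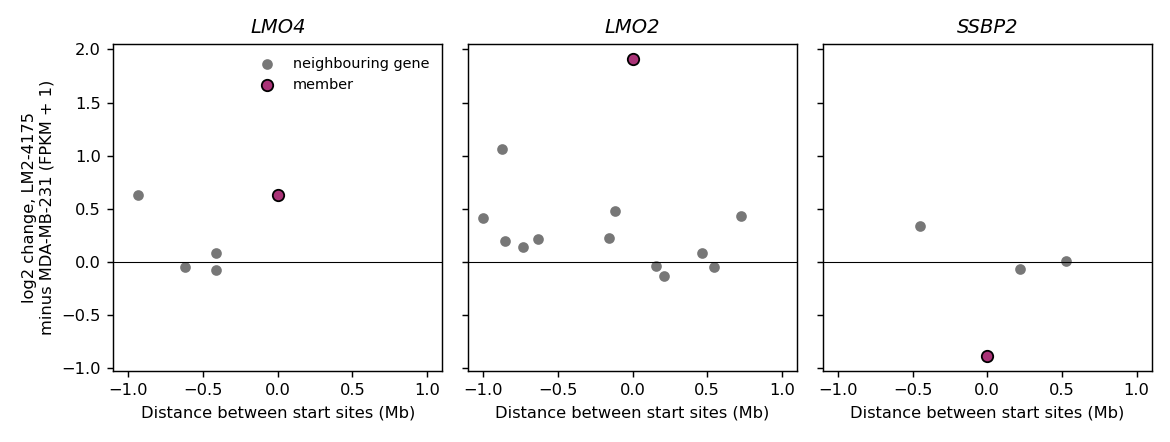
log2 change (LM2-4175 minus MDA-MB-231, FPKM + 1) of protein-coding genes tested within 1 Mb of LMO4, LMO2 and SSBP2, against distance from the gene in Mb. LMO2 is at 1.91 and its 12 neighbours lie between −0.13 and 1.07, and LMO4 at 0.63 is level with ODF2L. The neighbours of LMO2 and SSBP2 were chosen for display after values were seen.

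The genes whose levels in both cell lines were most like those of LMO4 were IMP3 (16.7 and 26.7 FPKM), FRA10AC1 (16.9 and 26.1 FPKM) and OCRL (16.7 and 25.7 FPKM). Likeness was the distance in log2(FPKM + 1), which was 0.021, 0.025 and 0.0319 over 2 cell lines.

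Markers were examined as a check of the labels. The mesenchymal markers VIM, CD44 and AXL were high in both lines, the lowest value being 322 FPKM for AXL in LM2-4175, and the luminal factor FOXA1 was below 0.5 FPKM. Of the receptors that the triple-negative label refers to, ESR1 and PGR did not exceed 0.0331 FPKM, and ERBB2, which encodes HER2, was at 34.95 FPKM in the parent line and 22.8 FPKM in LM2-4175. The label concerns protein or gene copies, which were not measured here. Of 6 luminal markers tested 3 were called lower in LM2-4175, KRT8, KRT18 and EPCAM, beside 4.61% of all genes tested. The 9 luminal markers summed to 1125 FPKM in the parent line and 392 FPKM in LM2-4175, mostly from the keratins KRT8 and KRT18. Of 5 mesenchymal markers FN1 was called lower (314 to 117 FPKM). The 5 white blood cell markers, relevant to LMO2 as a gene of blood cells, summed to 1.28 FPKM in the parent line and 1.78 FPKM in LM2-4175. PTPRC was at 0.0767 and 0.0263 FPKM, CD3E was listed at 0 in both, and CD14 was at 1.17 and 1.75 FPKM. Endothelial cells also express LMO2. The 3 endothelial markers measured summed to 1.06 and 2.60 FPKM, nearly all from KDR, which was called higher (0.971 to 2.48 FPKM), while CDH5 and TEK did not exceed 0.0857 FPKM. The part of these markers in the LMO2 values was not tested.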

How the data were processed

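Total RNA of 4 libraries, 2 per cell line, had been sequenced as paired reads of 150 bases, aligned to hg19 with TopHat 2.0 and quantified on GENCODE 19 with Cufflinks and Cuffdiff. The authors deposited 1 FPKM per gene and cell line with bounds and a status, combining the libraries. The table holds no read counts, and totals per library from other sources were not used here, so precision was read from the bounds. Whether these cover the spread between libraries, and whether the libraries came from separate cultures, is not given in the sources used here. Changes were log2 ratios of FPKM + 1, computed in Python 3.11.15 with NumPy 2.4.6 and pandas 2.3.3 and drawn with Matplotlib 3.10.9. Genes with status OK in both lines and a mean of at least 0.5 FPKM were tested. Errors of sums and ratios treat genes as independent. Positions came from GENCODE 44 on GRCh37, to which 55535 of 57815 gene IDs were matched, and primer and siRNA sequences from the study's supplement. Members and lists were chosen with earlier results of these data known. Named are the members, the 3 largest changes each way of each list with other called genes up to 5, the 3 genes nearest LMO4 in level and its neighbours within 1 Mb. Untested genes, marker genes, SSBP4, TCF3 and neighbours of other members were named after their values were seen. The alternatives were another pseudocount, filter, scaling and call rule. The values of 2 marker genes are not reported here.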

Additional observations from a re-analysis of the deposited data

How the results depend on the processing

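No paired analysis was possible because the table holds 1 combined value per cell line, and leaving out a library could not be run for the same reason. Each result was compared with its main value under each alternative. Of these comparisons 108 were the same, 15 moved, 1 was reversed and 4 were stronger. For a member, same means the same direction and call, and stronger means called only under the alternative. For a count, same means within 1.5-fold of the main count, and moved means further from it. With a mean of at least 1 FPKM, 0 genes of LDB1 complexes were called in place of 1, because LYL1 was no longer tested. Scaled to the same sum, DEAF1 turned from −0.01 to 0.065, the median of all genes shifted by 0.071 on the log2 scale, and 737 genes were called higher and 541 lower, in place of 649 and 641. With the fold and without the bounds, LMO4 (0.63) was called higher and SSBP2 (−0.89) lower, so that 2 members were called higher and 1 lower, beside 1434 and 1640 of all genes. The lists then had 1 LIM-homeodomain factor, 13 cytoskeletal LIM genes and 47 predicted targets called. With at least 2-fold and the bounds, 403 genes were called lower and 0 reported LMO4 partners. With 1.5-fold and a difference over 1.96 standard errors, chosen after seeing the data, LMO4 (0.63) was called higher and SSBP2 (−0.89) lower, so that 2 members were called higher and 1 lower. All genes called lower then numbered 1090, LIM-homeodomain factors 1 and predicted targets 38. LMO2 was called higher under every alternative, with a log2 change from 1.91 to 3.30, the latter with a pseudocount of 0.1. All alternatives use the same 1 combined value per cell line, so they are not independent checks of LMO2.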

Other observations

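LIM domains also occur in proteins of the cytoskeleton and of cell adhesions, which do not act through LDB1. Of 46 such genes 42 were tested, 14 with higher and 28 with lower values in LM2-4175, and 3 were called in each direction. Over all genes tested 4.67% were called higher and 4.61% lower. The median log2 change of the 42 genes was −0.23, beside −0.04 over all genes tested. FHL1, known from muscle, rose from 3.82 to 27.7 FPKM, a log2 change of 2.58. PDLIM3, which binds alpha-actinin, rose from 3.54 to 17.0 FPKM, and LPXN, a relative of the adhesion protein paxillin, from 12.3 to 35.5 FPKM. WTIP, of the zyxin and ajuba family, fell from 11.5 to 2.23 FPKM, a log2 change of −1.95. LIMK1, the kinase that inactivates the actin-severing protein cofilin, fell from 63.6 to 29.1 FPKM, and LIMS2, an adhesion protein that binds integrin-linked kinase, from 13.5 to 5.88 FPKM. PRICKLE1, of planar cell polarity, was at 10.9 and 3.78 FPKM, a log2 change of −1.32, and was not called because its bounds overlapped.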
